A study of Mus musculus with 42 samples.

Results

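Expression of 4 tachykinin system genes was examined in 4 hypothalamic nuclei of fed and fasted mice. Tac1 and Tac2 encode ligands, and Tacr1 and Tacr3 encode receptors. The genes were taken by symbol, through their Ensembl identifiers, from a table of 37907 genes measured by RNA-seq, and all 4 were found. All groups were adult male C57/BL6 wild-type animals. Fed mice had food ad libitum, and fasted mice had gone 24 hours without it. No label names a transgene or a deletion. The arcuate nucleus (ARC) gave 5 fed and 5 fasted libraries, the ventromedial hypothalamus (VMH) 6 and 6, the dorsomedial hypothalamus (DMH) 5 and 4, and the paraventricular nucleus (PVN) 6 and 5. Each library came from laser-captured tissue that holds neurons together with glia and vessels, so fewer cells that express a gene and less RNA per cell cannot be told apart. All 4 nuclei were cut from the same brains, whereas fed and fasted animals were different mice. The labels do not tie libraries to a mouse, so libraries were treated as independent, and p-values measure the spread between libraries only.

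Tachykinins are short neuropeptides that share a carboxy-terminal motif and signal through G protein-coupled receptors linked to Gq and phospholipase C. The Tac1 precursor is cut into substance P, which prefers the NK1 receptor encoded by Tacr1, and neurokinin A. The Tac2 precursor yields neurokinin B, which prefers the NK3 receptor encoded by Tacr3. In the arcuate nucleus neurokinin B is made by the kisspeptin neurons that drive pulsatile gonadotropin-releasing hormone secretion, and these cells carry the NK3 receptor themselves. Substance P neurons are spread more widely through the hypothalamus.

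All 4 genes are protein coding and lie on the plus strand of GRCm38. Tac1 (ENSMUSG00000061762) spans chr6:7554879-7565834 and Tacr1 (ENSMUSG00000030043) spans chr6:82402334-82560104. Tac2 (ENSMUSG00000025400) spans chr10:127724478-127731768 and Tacr3 (ENSMUSG00000028172) spans chr3:134829007-134934579. Merged exon lengths were 3399 bases for Tac1, 1378 for Tac2, 6491 for Tacr1 and 3762 for Tacr3, and 0% of these exon bases overlapped another gene, which matters because the reads carried no strand. The proximal promoters of neurokinin B and of its receptor are shown because this ligand and receptor share the ARC as the nucleus with their highest mean. The higher ARC mean did not pass the main test against the DMH for either gene, nor against the PVN for Tacr3. Each run is the 150 bases before the RefSeq transcription start on GRCm38.p6, plus strand, and capitals mark matches to the motifs searched on both strands.
Tac2, chr10:127724328-127724477: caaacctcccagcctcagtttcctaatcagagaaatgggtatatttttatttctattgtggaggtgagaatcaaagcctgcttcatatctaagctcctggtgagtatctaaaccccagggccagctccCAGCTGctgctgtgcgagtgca
Tacr3, chr3:134828857-134829006: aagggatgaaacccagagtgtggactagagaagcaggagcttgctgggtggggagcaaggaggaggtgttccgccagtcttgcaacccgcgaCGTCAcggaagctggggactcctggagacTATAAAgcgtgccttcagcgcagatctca
The Tac2 window held 1 E-box of the form CAGCTG, which began 22 bases before the start and is found in 8.4% of the 32851 promoter windows of this length. The Tacr3 window held a TATA box, searched as TATAAA, which began 29 bases before the start and is found in 7.6% of windows. It also held a cAMP response element half-site, searched as TGACG and read here on the minus strand, which began 58 bases before the start and is found in 13.3% of windows. A GC box, searched as GGGCGG and found in 28.6% of windows, was in neither. The 2 windows had no searched motif in common, and these matches describe letters only.

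The libraries held an estimated 1.33 to 13.2 M (mega) reads, with the shallowest being fasted VMH replicate 1 at 1.33 M. Fasted DMH libraries were deeper (7.377 ± 3.998 M reads, SD, n = 4) than fed DMH libraries (3.91 ± 0.861 M reads, n = 5). The deposited values are RPKM, read counts scaled for exon length and library size. They carried an added count of 5.005 reads in the mean library, and the mean log2 value of each gene had been made equal across 3 sets of 10, 16 and 16 libraries. Libraries were assigned to the sets from the values themselves. ARC and DMH libraries made up 30% of the first set and 50% of each of the other 2, so a gene that is high in those nuclei was scaled up in the first set. With nucleus and nutritional state in the model, values of the first set stood at 1.473 times the average of the sets for Tac2, 1.188 times for Tacr1, 1.156 times for Tacr3 and 0.946 times for Tac1. Within each nucleus all of its marker genes had their highest mean there in fed and in fasted mice (4 of 4 for ARC, 2 of 2 for VMH, 2 of 2 for DMH and 5 of 5 for PVN). The DMH marker Ppp1r17 nevertheless overlapped between fasted DMH (44.7 to 55.7 RPKM) and fasted PVN libraries (33.9 to 68.5 RPKM). The DMH libraries also held the lateral hypothalamic transcripts Pmch and Hcrt, at a summed level of 269 to 1448 RPKM in fed and 401.3 to 631 RPKM in fasted mice, against 2.28 to 35.2 RPKM in the other 3 nuclei. Their part in the DMH levels below was not tested.

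Tac2 had its highest mean level in the ARC, where Tac1 had its lowest, and both receptors were lowest in the VMH. In fed mice the level differed between nuclei for 3 of the 4 genes (limma F test, adjusted p under 0.1, a threshold passed by 12.4% of the 33579 genes tested), and in fasted mice for 4 of 4 (11.9% of genes). Adjusted p in fed mice was 2.67e-14 for Tac2, 1.92e-05 for Tacr1, 0.0356 for Tacr3 and 0.125 for Tac1, and in fasted mice 6.41e-13, 0.000149, 0.0005 and 0.0937 in the same order. The call for Tac1 in fasted mice held when ARC-Fast-1, DMH-Fast-1, DMH-Fast-2, PVN-Fast-3, VMH-Fast-1 or VMH-Fast-2 was left out and was lost without any 1 of the other 14 fasted libraries (adjusted p 0.0144 to 0.267 over the 20). It was also lost with the sets as a term in the model, an alternative added after the data were seen (0.11). In fed mice Tac1 passed without ARC-Fed-3 (0.0824), DMH-Fed-5 (0.0774) or VMH-Fed-1 (0.0714). That for Tacr3 in fed mice was lost without VMH-Fed-1 (0.115), without VMH-Fed-2 (0.123) and without the first set (0.261), the latter also an added alternative.

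Taken by pairs of nuclei, 4 of the 4 genes differed between ARC and VMH in fed mice (7.90% of all genes did) and 4 of 4 in fasted mice (8.91%). Between ARC and PVN the genes called were Tac2 and Tacr1, which is 2 of 4 in fed (4.13% of all genes) and 2 of 4 in fasted mice (4.19%). Between DMH and PVN the same pair of genes was called, again 2 of 4 in fed (3.42%) and 2 of 4 in fasted mice (3.0%). Between VMH and DMH there were 2 of 4 in fed mice, Tac2 and Tacr1 (5.24%), and 3 of 4 in fasted mice, with Tacr3 in addition (3.94%). Between VMH and PVN there was 1 of 4 in fed mice, Tacr3 (9.84%), and 2 of 4 in fasted mice, Tac2 and Tacr3 (9.24%). Between ARC and DMH limma called 0 of 4 in fed (2.79%) and 0 of 4 in fasted mice (3.21%), with 2 and 1 genes at an unadjusted p under 0.05. The 6 pairs of a state share libraries and are not independent.

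**Figure D1:**
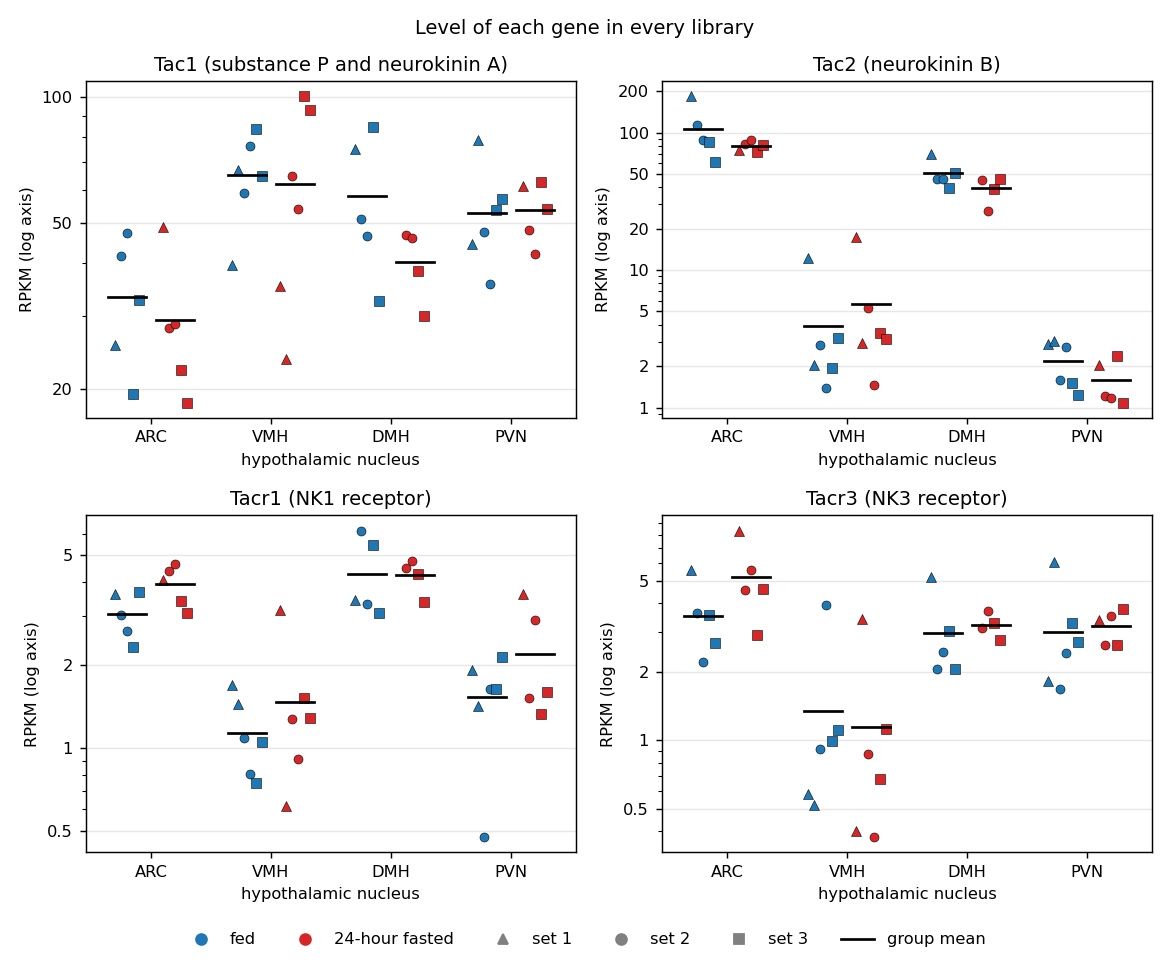
RPKM on a log axis for each gene in every library, by nucleus, with fed mice in blue, 24-hour fasted mice in red, the marker shape giving the set and black lines the group mean. Tac2 stands at 27.0 RPKM or more in every ARC and DMH library and at 17.5 or less in every VMH and PVN library, while fed and fasted points of a nucleus overlap for each gene.

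Tac2 was the gene with the widest range between nuclei. In fed ARC libraries it stood at 183, 114, 88.1, 85.3 and 61.5 RPKM, a mean of 106 ± 46.8 (SD, n = 5). In fasted ARC libraries it stood at 75.1, 82.3, 88.6, 72.6 and 80.6 RPKM, a mean of 79.8 ± 6.27 (n = 5). The highest of these, 183 RPKM, belonged to the first set, and with the set terms removed the 2 groups had similar spread, at 109.6 ± 24.1 and 88.9 ± 22.3 RPKM. DMH libraries came next, at 70.1, 46.2, 45.8, 39.8 and 50.8 RPKM in fed mice (50.5 ± 11.6, n = 5). Fasted DMH libraries held 45.3, 27.0, 38.7 and 45.7 RPKM (39.2 ± 8.72, n = 4). The mean over ARC libraries was therefore 2.107 times that over DMH libraries in fed mice and 2.038 times in fasted mice.

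In the VMH and PVN Tac2 was low, and in most PVN libraries and part of the VMH libraries it was close to what a library without a Tac2 read would show. Fed VMH libraries ran from 1.39 through a median of 2.46 to 12.2 RPKM, and fasted VMH libraries from 1.47 through 3.31 to 17.5 RPKM. Fed PVN libraries ran from 1.24 through 2.16 to 3.04 RPKM, and the fasted PVN libraries held 2.04, 1.21, 1.18, 2.37 and 1.09 RPKM. Every library of these nuclei lay below every ARC and DMH library. In the first set a Tac2 value of 2.04 RPKM stood for 0 reads, as in VMH-Fed-2 and PVN-Fast-1, where 0 reads of 3.09 and 2.96 M allow up to 3.86 and 3.94 RPKM (3 reads, counting error only). In VMH-Fed-1 and VMH-Fast-1 of that set 0 reads would allow up to 4.8 and 6.26 RPKM, below their 12.2 and 17.5 RPKM. From the exon length alone the value for 0 reads would be 0.795 RPKM, so low Tac2 values of different sets cannot be read on a common scale. Estimated Tac2 reads were 0 to 38.5 per VMH library and 0 to 13.4 per PVN library, against 130 to 963 in the ARC and DMH. For the first set these came from its no-read value. For the other sets they came from the exon length, without the scaling between sets, so the ranges are approximate.

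On the log2(RPKM + 1) scale the fed ARC exceeded the fed VMH by 4.62 ± 0.36 (SE, limma adjusted p = 6.1e-12) and the fed PVN by 5.03 ± 0.36 (1.14e-12). The fed DMH exceeded the VMH by 3.63 and the PVN by 4.04, with adjusted p of 4.28e-09 and 5.33e-10. In fasted mice the corresponding differences were 3.94 and 4.996 for the ARC and 2.91 and 3.96 for the DMH, with adjusted p from 2.3e-06 to 4.24e-12. These differences understate the contrast, since the low side carries the added count. With the sets as a term on log2(RPKM), also added after the data were seen, they were 5.20 and 5.72 for the fed ARC. Each of these 8 differences kept its call under all alternatives run.

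The order of ARC and DMH was less firm. The difference was 0.99 ± 0.37 in fed mice (95% interval 0.23 to 1.75, limma adjusted p = 0.238) and 1.03 ± 0.40 in fasted mice (0.23 to 1.84, adjusted p = 0.249). Within the sets it was 1.37, 1.11 and 0.68 in fed mice, and 1.26 and 0.85 in the 2 sets with fasted DMH libraries. In fasted mice the groups did not overlap, with 72.6 RPKM as the lowest ARC and 45.7 RPKM as the highest DMH library. Without the first set the difference passed the threshold, at 0.89 in fed (limma adjusted p = 0.0474) and 1.06 in fasted mice (0.0123). Mean Tac2 in the DMH was 47.5% of its ARC mean in fed and 49.1% in fasted mice. Among the ARC markers the same percentage was 1.93% and 1.6% for Npy, 2.62% and 0.98% for Agrp, 2.04% and 1.2% for Pomc, and 32.7% and 22.0% for Ghrh.

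Between VMH and PVN Tac2 differed by 0.40 ± 0.34 in fed mice (95% interval -0.29 to 1.10, limma adjusted p = 0.703). In fasted mice the VMH was 1.06 ± 0.36 higher (adjusted p = 0.0696). This call was lost without VMH-Fast-1 (0.69, adjusted p = 0.243), the library with 17.5 RPKM, and also without VMH-Fast-3, PVN-Fast-2, PVN-Fast-3 or PVN-Fast-5 (0.987 to 1.007, adjusted p 0.124 to 0.144).

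Tac1, in contrast, was high in all 4 nuclei and lowest in the ARC. Fed VMH libraries ran from 39.6 through a median of 65.9 to 83.7 RPKM (65.1 ± 15.3, n = 6), and fasted VMH libraries from 23.6 through 59.3 to 100.3 RPKM (61.9 ± 30.7, n = 6). Fed ARC libraries held 25.5, 41.7, 47.2, 19.5 and 32.7 RPKM (33.3 ± 11.3, n = 5). Fasted ARC libraries held 49.0, 28.1, 28.6, 22.2 and 18.6 RPKM (29.3 ± 11.8, n = 5). The VMH and ARC overlapped in both states. In fasted mice the overlap came from the 2 lowest VMH libraries and the highest ARC library, all of the first set. DMH libraries held 75.0, 51.2, 46.4, 84.5 and 32.5 RPKM in fed mice (57.9 ± 21.4) and 46.8, 46.0, 38.4 and 29.9 RPKM in fasted mice (40.3 ± 7.89). In the PVN the fed libraries ran from 35.7 through 50.6 to 79.1 RPKM (52.9 ± 14.8), and fasted libraries held 61.4, 48.1, 42.1, 62.6 and 54.1 RPKM (53.7 ± 8.72). The order of means was VMH, DMH, PVN and ARC in fed mice and VMH, PVN, DMH and ARC in fasted mice.

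The Tac1 difference that passed the threshold was the one between ARC and VMH. The ARC was lower by 0.98 ± 0.30 on the log2 scale in fed mice (limma adjusted p = 0.0392) and by 0.96 ± 0.30 in fasted mice (0.04), which is 0.512 and 0.474 times the VMH mean. In fed mice the sign was the same within all 3 sets (-0.99, -0.59 and -1.50). In fasted mice it was 0.74 in the first set, with 1 ARC and 2 VMH libraries, and -1.03 and -2.20 in the others. The fed call was lost without ARC-Fed-1 (adjusted p = 0.112) or ARC-Fed-4 (0.147). The fasted call was lost without ARC-Fast-4 (0.103), ARC-Fast-5 (0.131), VMH-Fast-5 (0.128) or VMH-Fast-6 (0.119). Without the first set the fasted difference was larger (-1.61, adjusted p = 0.000139). The fasted ARC was also 0.91 ± 0.31 below the PVN (adjusted p = 0.123), and this passed without ARC-Fast-1 (-1.11, 0.0486) or the whole first set (-1.06, 0.021), with array weights (-1.08, 0.00958) and with the filter at 5 RPKM (0.0808). Among VMH, DMH and PVN the differences were between -0.41 and 0.46, with 95% intervals from -1.08 to 1.10. Without the first set the fasted VMH exceeded the DMH by 0.91 and passed (adjusted p = 0.0537).

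RPKM is per length, so the values of 2 genes can be set side by side within a library, but the scaling of each gene between sets enters the ratio. The ratio also depends on the length assigned to each gene. Merged exon lengths cover 5 annotated transcripts of Tac1 and 4 of Tac2, and which of them were expressed was not tested. The highest Tac2 to Tac1 ratio, 7.19 in ARC-Fed-1, was of the first set, and ratios are therefore also given without that set. Tac2 exceeded Tac1 in 5 of 5 fed and 5 of 5 fasted ARC libraries, with median ratios of 2.74 and 3.09 (2.31 and 3.18 without the first set, n = 4 each). In the DMH the median ratios were 0.934 and 0.988, with Tac2 above Tac1 in 1 of 5 fed and 2 of 4 fasted libraries. Single DMH libraries ran from 0.471 to 1.56 in fed and from 0.587 to 1.53 in fasted mice. In the VMH and PVN Tac1 exceeded Tac2 in all 23 libraries. The median ratio was 0.0395 in the fed and 0.0581 in the fasted VMH, and 0.0358 and 0.028 in the PVN. The ratios in VMH and PVN are upper estimates where Tac2 was near its no-read value.

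**Figure D2:**
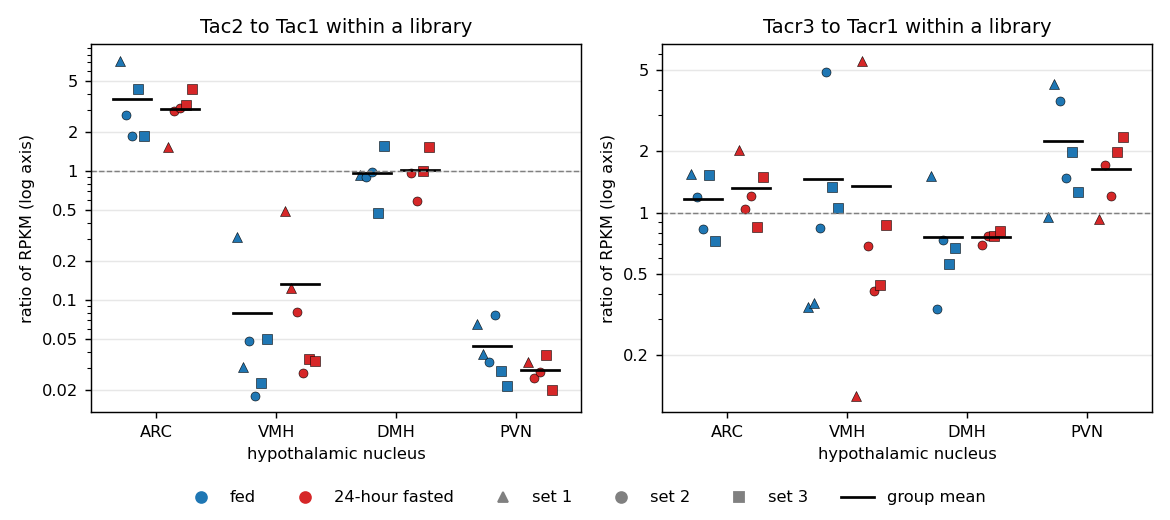
Ratio of RPKM within each library on a log axis, Tac2 to Tac1 at left and Tacr3 to Tacr1 at right, by nucleus and nutritional state, with the marker shape giving the set, black lines the group mean and a dashed line at a ratio of 1. The Tac2 to Tac1 ratio lies above 1 in all 10 ARC libraries and below 0.5 in all VMH and PVN libraries, whereas the receptor ratio spreads across 1 in most groups.

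Tacr1, the substance P receptor, was a low transcript with its highest levels in DMH and ARC. Fed DMH libraries held 3.44, 6.14, 3.33, 5.43 and 3.09 RPKM (4.28 ± 1.40, n = 5) and fasted DMH libraries 4.51, 4.78, 4.29 and 3.4 RPKM (4.24 ± 0.598, n = 4). Fed ARC libraries held 3.63, 3.04, 2.65, 2.32 and 3.68 RPKM (3.06 ± 0.595, n = 5), and fasted ARC libraries 4.07, 4.39, 4.65, 3.41 and 3.09 RPKM (3.92 ± 0.653, n = 5). ARC and DMH overlapped in both states. The VMH was lowest, running from 0.745 through 1.07 to 1.7 RPKM in fed (1.14 ± 0.368, n = 6) and from 0.615 through 1.28 to 3.17 RPKM in fasted mice (1.46 ± 0.894, n = 6). The fed PVN ran from 0.476 through 1.64 to 2.13 RPKM (1.54 ± 0.577, n = 6), and the fasted PVN held 3.62, 1.52, 2.91, 1.33 and 1.60 RPKM (2.2 ± 1.013, n = 5). In fed mice neither the VMH nor the PVN overlapped the ARC or the DMH. The Tacr1 estimates rest on 6 to 44.9 reads per VMH library and 8.9 to 78.0 per PVN library.

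The order of Tacr1 means was DMH, ARC, PVN and VMH in both states. On the log2 scale the fed DMH exceeded the VMH by 1.28 ± 0.20 (limma adjusted p = 3.84e-05) and the PVN by 1.06 ± 0.20 (0.00102). The fed ARC exceeded the VMH by 0.93 ± 0.20 (0.00192) and the PVN by 0.71 ± 0.20 (0.0451). In fasted mice the differences from the VMH were 1.15 for the DMH (0.000671) and 1.06 for the ARC (0.000374), and those from the PVN were 0.76 (0.0689) and 0.67 (0.0843). Differences from the VMH kept their calls under all alternatives in which Tacr1 was tested. That between fed ARC and PVN was lost without ARC-Fed-1, ARC-Fed-5 or PVN-Fed-3 (adjusted p = 0.127, 0.121 and 0.163). In fasted mice the ARC to PVN call was lost without ARC-Fast-1, ARC-Fast-2, ARC-Fast-3, PVN-Fast-2, PVN-Fast-4 or PVN-Fast-5 (adjusted p 0.16 to 0.233), and the DMH to PVN call without DMH-Fast-1, DMH-Fast-2, DMH-Fast-3, PVN-Fast-2, PVN-Fast-4 or PVN-Fast-5 (0.109 to 0.2). The differences between neighbours at either end of the order did not pass the test, with ARC minus DMH at -0.35 in fed (95% interval -0.78 to 0.08) and -0.09 in fasted mice (-0.55 to 0.36), and VMH minus PVN at -0.23 (-0.62 to 0.17) and -0.39 (-0.80 to 0.02). The last of these passed the threshold without VMH-Fast-1 (-0.55, adjusted p = 0.0801).

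Tacr3, the neurokinin B receptor, was low in the VMH, and no difference among the other 3 nuclei passed the main test. The fasted ARC mean was nevertheless 1.619 times the fasted DMH mean and 1.632 times the fasted PVN mean. Fed ARC libraries held 5.60, 3.62, 2.21, 3.55 and 2.67 RPKM (3.53 ± 1.30, n = 5), and fasted ARC libraries 8.31, 4.56, 5.61, 2.92 and 4.63 RPKM (5.21 ± 1.99, n = 5). Fed VMH libraries ran from 0.520 through 0.955 to 3.93 RPKM (1.34 ± 1.29, n = 6) and fasted VMH libraries from 0.377 through 0.777 to 3.42 RPKM (1.15 ± 1.15, n = 6). In each VMH group 5 of 6 libraries lay at or below 1.12 RPKM, under every library of the other nuclei, and the sixth (VMH-Fed-4, VMH-Fast-2) lay among them. The DMH held 5.23, 2.07, 2.45, 3.03 and 2.07 RPKM in fed (2.97 ± 1.33, n = 5) and 3.12, 3.69, 3.28 and 2.77 RPKM in fasted mice (3.22 ± 0.379, n = 4). The fed PVN ran from 1.69 through 2.56 to 6.07 RPKM (2.99 ± 1.61, n = 6), and the fasted PVN held 3.39, 2.61, 3.53, 2.64 and 3.79 RPKM (3.19 ± 0.537, n = 5). Estimated Tacr3 reads were 0.6 to 58.9 per VMH library and 19.6 to 143 in the other nuclei.

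The fed ARC exceeded the VMH in Tacr3 by 1.04 ± 0.28 on the log2 scale (limma adjusted p = 0.0171) and the fasted ARC by 1.60 ± 0.28 (0.000111), and both calls held under all alternatives run. The PVN exceeded the VMH by 0.82 ± 0.27 in fed (0.0559) and 1.09 ± 0.28 in fasted mice (0.0104). The DMH exceeded it by 0.84 ± 0.28 in fed (0.103) and 1.10 ± 0.30 in fasted mice (0.0332). The fed PVN call was lost without PVN-Fed-2, PVN-Fed-5, VMH-Fed-1 or VMH-Fed-2 (adjusted p = 0.193, 0.103, 0.128 and 0.137) and without the first set (difference -0.47, adjusted p = 0.302), while the fed DMH difference passed without VMH-Fed-4 (-1.08, adjusted p = 0.0113), DMH-Fed-2 (-0.92, 0.0962) or DMH-Fed-5 (-0.92, 0.0999). It also passed with the sets as a term (-0.88, adjusted p = 0.0771), with that term on log2(RPKM) (0.0617), with a pseudocount of 0.1 (0.0653), with array weights (0.0617) and with the filter at 5 RPKM (0.0673), whereas without the first set it was -0.43 (0.399). Among ARC, DMH and PVN the fed differences were 0.02 to 0.22, with 95% intervals from -0.56 to 0.80, and the fasted ones 0.01 to 0.52, with intervals from -0.62 to 1.14. The ratio of Tacr3 to Tacr1 within a library, per length, had its highest medians in the PVN (1.74 fed and 1.72 fasted, or 1.74 and 1.85 without the first set). It was 1.19 and 1.21 in the ARC (1.013 and 1.12 without that set), and it was below 1 in 4 of 5 fed and 4 of 4 fasted DMH libraries (medians 0.669 and 0.768).

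**Figure D3:**
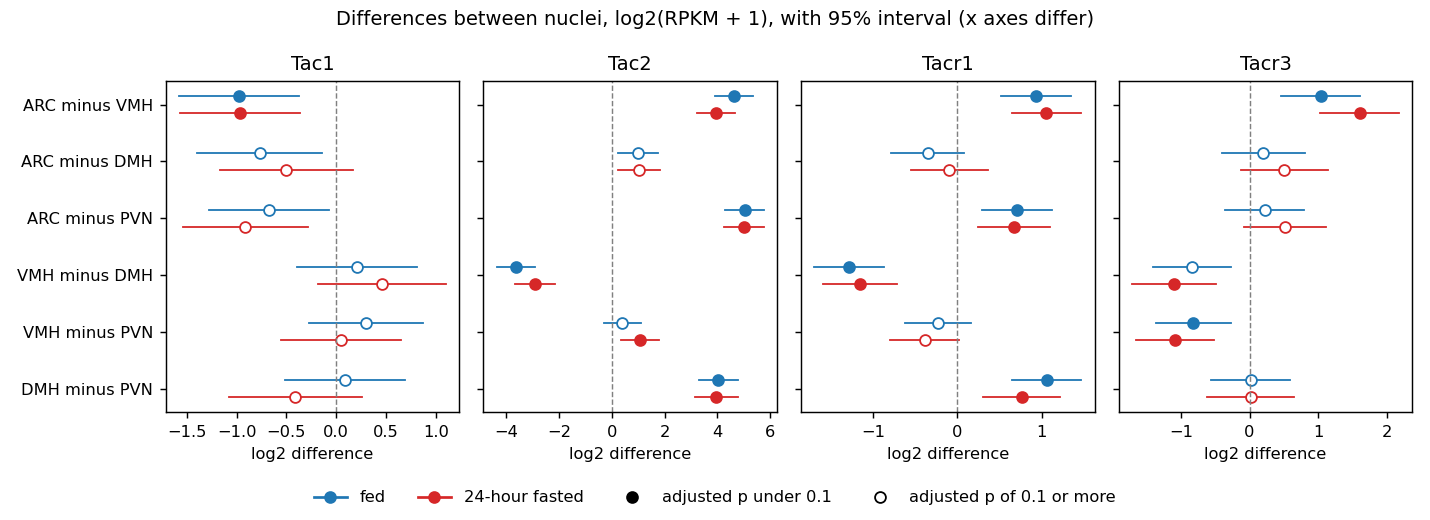
Difference of mean log2(RPKM + 1) between nuclei for each gene, with fed mice in blue and 24-hour fasted mice in red, lines giving 95% intervals and filled points an adjusted p under 0.1, on x axes that differ between genes. Tac2 differences reach 5.03, whereas those of the other 3 genes stay within 1.60 of 0.

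No difference between fasted and fed mice passed the test for any of the 4 transcripts in any nucleus. By limma, 0 of 4 genes were called in the ARC (0.0566% of all genes were). In the VMH it was 0 of 4 (0.131%), as in the DMH (0 of 4, 0.0238%) and the PVN (0 of 4, 0.0715%). None of the 16 tests had an unadjusted p under 0.05 (the smallest was 0.127), and none passed 0.05 in a two-sided exact permutation test. In the same fit the hunger peptide transcript Agrp rose with fasting in the ARC by 1.61 on the log2 scale (adjusted p = 0.0613). Npy, also a hunger peptide, differed by 1.33 (adjusted p = 0.464) and Pomc, a precursor of satiety peptides, by -0.51 (0.77), neither of which passed. Yet Npy did not overlap between fasted (591 to 1428 RPKM) and fed ARC libraries (284 to 453 RPKM). The study, which tested counts, reported a rise of Npy with fasting in the ARC. The fit shares 1 spread per gene over all 8 groups, so a missed call does not show an unchanged gene. The differences for the 4 genes were at most 0.46 in size on that scale, and their 95% intervals reached as far as 1.17.

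Among the ligands, Tac2 lay below the fed mean in 5 of 5 fasted ARC libraries and 4 of 4 fasted DMH libraries, and the mean differences, fasted minus fed, were -0.32 (95% interval -1.07 to 0.44, exact permutation p = 0.302) and -0.36 (-1.17 to 0.44, exact permutation p = 0.0952). In the ARC the within-set differences were -1.27, -0.23 and 0.08, so the mean rested on the first set, which held 1 fed and 1 fasted library. In the DMH they were -0.38 and -0.09 in the 2 sets with both states. The Tac2 difference was 0.37 in the VMH and -0.29 in the PVN, where few reads stood behind it. For Tac1 it was -0.19 in ARC, -0.20 in VMH, -0.46 in DMH and 0.05 in PVN. The DMH difference of Tac1, with 4 of 4 fasted libraries below the fed mean, had an exact permutation p of 0.183 and was -0.07 and -0.62 within sets.

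For the receptors, Tacr1 lay above the fed mean in 5 of 5 fasted ARC libraries, with a difference of 0.28 (95% interval -0.15 to 0.71, exact permutation p = 0.0714) and within-set differences of 0.13, 0.52 and 0.11. The groups still overlapped, at 2.32 to 3.68 RPKM in fed and 3.09 to 4.65 RPKM in fasted mice. Tacr3 in the ARC differed by 0.44 (-0.16 to 1.04, exact permutation p = 0.119), with 0.50, 0.65 and 0.20 within sets and 4 of 5 fasted libraries above the fed mean. In the other nuclei the receptor differences were -0.13 to 0.32, with exact permutation p from 0.258 to 0.921. Whether the effect of fasting differed between nuclei was tested as an interaction, for which limma called 0 of 4 genes (0.00596% of all genes), with an adjusted p of 1 for each and 0 genes at an unadjusted p under 0.05.

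**Figure D4:**
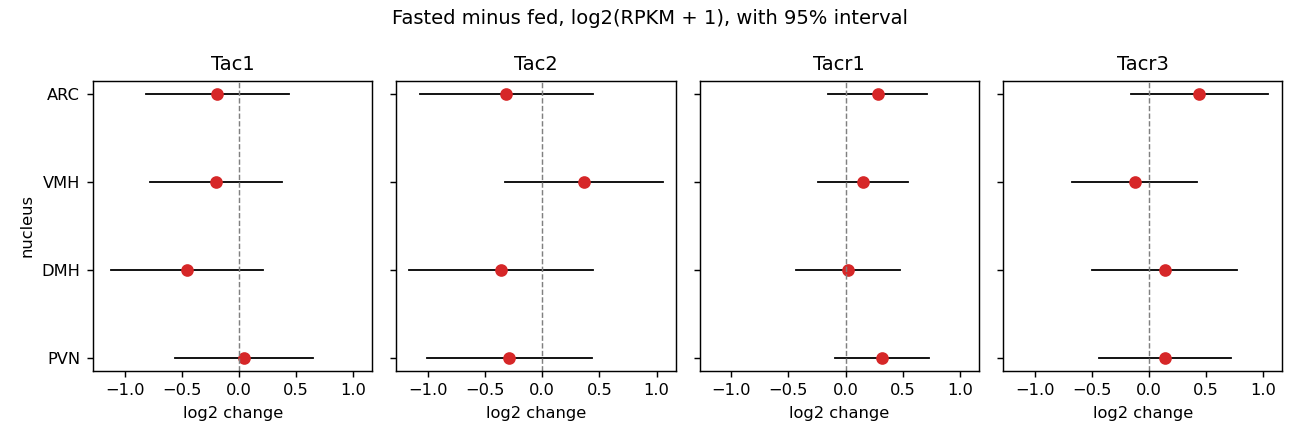
Fasted minus fed difference of mean log2(RPKM + 1) for each gene in each nucleus, with points for the estimate and lines for the 95% interval. All 16 intervals include 0, and the estimates lie between -0.46 and 0.44.

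The genes whose pattern was most like each of the 4 were listed by Pearson correlation of log2(RPKM + 1) over the 42 libraries, among 10407 genes with a mean of at least 5 RPKM in some group. These libraries share brains and sets, and the correlations mainly follow differences between nuclei. For Tac2 they were Bsx (r = 0.927), 4933403O08Rik (0.925), Fzd5 (0.921), Gad1 (0.911), which encodes a GABA-synthesizing enzyme, and Plagl1 (0.902). Bsx, a homeodomain factor of the hypothalamus, had means of 23.9 and 24.6 RPKM in the fed and fasted ARC, 16.1 and 18.8 RPKM in the DMH, and 1.31 to 2.96 RPKM in the VMH and PVN. The closest to Tacr1 were Slc32a1 (0.853), the vesicular transporter of GABA, Pgr15l (0.826), Gpr50 (0.825), Dlx1 (0.817) and Ecel1 (0.797).

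For Tacr3 the closest were Ghrh (0.797), which encodes growth hormone-releasing hormone, Dock11 (0.789), Wsb1 (0.780), Dlk1 (0.775) and Slc38a1 (0.762). Ghrh stood at 199 and 242 RPKM in the fed and fasted ARC, 64.9 and 53.1 in the DMH, 31.3 and 34.6 in the PVN, and 4.82 and 4.68 in the VMH. For Tac1 the correlations were lower, and the genes included Clstn1 (0.681), Slit2 (0.669), Apba1 (0.666) and Lypd1 (0.651). Among the 4 genes themselves r was 0.768 for Tac2 with Tacr1, 0.464 for Tacr1 with Tacr3 and 0.426 for Tac2 with Tacr3. Tac1 correlated negatively with the other 3, at -0.546 for Tac2, -0.337 for Tacr1 and -0.322 for Tacr3.

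The remaining tachykinin genes were barely detected. Tac4, which encodes hemokinin, sat at the lowest value of its set in 30 of 42 libraries and reached 3.87 RPKM in VMH-Fed-4. Tacr2, the NK2 receptor that prefers neurokinin A, sat at that value in 33 of 42 libraries, reached 2.61 RPKM in PVN-Fed-3 and did not pass the filter on low values. A list of 24 genes around the pathway, chosen with the earlier results known, covered these 2, the genes of arcuate neurokinin B neurons, enzymes of peptide maturation and breakdown, and receptor signalling. Of the list 23 were in the table and 22 were tested, and Kiss1 was not analysed here.

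Most of that list differed between nuclei, with 14 of 22 called by the F test in fed (12.4% of all genes were) and 15 of 22 in fasted mice (11.9%). Esr1, the estrogen receptor carried by arcuate neurokinin B neurons, shared the high ARC level of Tac2 but not its DMH level, at 7.34 RPKM in the fed ARC and 1.51, 1.69 and 1.81 RPKM in the fed VMH, DMH and PVN (limma F adjusted p = 1.47e-11). Prlr, the prolactin receptor, stood at 16.4 RPKM in the fed ARC and 5.73 to 10.8 RPKM elsewhere (2.56e-09). Pcsk1, which cleaves peptide precursors, was highest in the PVN (39.7 RPKM fed, against 8.72 to 18.5, adjusted p = 3.44e-10). Itpr1, the calcium-release channel downstream of Gq, was highest in the VMH (49.7 RPKM fed, against 9.61 to 17.3, 1.15e-17), the nucleus with the lowest Tacr1 and Tacr3.

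With fasting, limma called 0 of 22 in ARC, VMH and DMH and 1 of 22 in PVN, against 0.0566%, 0.131%, 0.0238% and 0.0715% of all genes. The median change of the list was between -0.08 and 0.01 in the 4 nuclei, and that of all genes was 0 in each. The gene called was Pdyn, the dynorphin precursor, which held 32.7, 38.5, 31.9, 49.2 and 51.4 RPKM in the fasted PVN and 57.8 to 64.6 RPKM in the 6 fed libraries. The groups did not overlap, and Pdyn fell by 0.58 on the log2 scale (adjusted p = 0.0573). The interaction test called 0 of 22 (0.00596% of all genes).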

How the data were processed

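Libraries were made from laser-captured nuclei of cresyl violet stained sections, amplified with the Ovation RNA-Seq V2 kit and sequenced single-end without strand. The authors deposited RPKM values for 37907 genes in 42 libraries, after read mapping to GRCm38 and, per the study's methods, removal of outlier libraries. Those methods give 3 batches of capture and library preparation. The equal mean log2 values of the sets were read from the files. The tools of the authors, per the submitters' processing notes, were CASAVA 1.7, TopHat2 2.0.11, Cufflinks 2.2.1, edgeR and limma. The RPKM as deposited held 0 zeros, so the depth was estimated from the steps between low values. At a tolerance of 0.02 reads, 97.6% to 98.8% of low values came out whole. The members of the batches are not given in the sources used here. The sets were read from equal values that libraries share, and whether they are those batches was not tested. No count test was run, because the values of a gene were rescaled between sets.

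Genes with at least 1 RPKM in at least 4 libraries (33579) were tested on log2(RPKM + 1) with limma 3.58.1 (R 4.3.3), with 8 group means fitted over 42 libraries, a variance trend, two-sided tests and Benjamini-Hochberg adjustment over all genes tested. The authors tested counts with edgeR, and limma takes its place here because the values are RPKM. Fasted and fed mice were also compared for each gene and nucleus by a two-sided exact permutation test over all splits (Python 3.11.15), for which raw p-values are given over 16 tests. Adjusted p under 0.1 was called. On simulated data for the ARC fasting comparison, with 200 of 33579 genes changed, 76.6% of the changes of 1 and 98.1% of those of 2 on the log2 scale were recovered. The changes were planted only in genes above a minimum mean level, with independent normal noise. These shares are over the planted genes together and do not give the chance of a call for any of the 4 genes examined.

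Alternatives were another pseudocount, filter, normalization or variance model, the replicate block, leaving out each library, and, added after seeing the data, leaving out the first set, the sets as a term on log2(RPKM) and, for comparisons of nuclei, the sets as a term (for the fasting comparisons this term was among the first alternatives). The genes examined, the pathway list and the rule for genes with a like pattern (the 5 highest correlations) were chosen with earlier results of these data known. One gene that this rule names is not reported here. Libraries with equal replicate numbers did not deviate together, so the numbers were not taken as pairs. Gene positions came from GENCODE M21 (35965 identifiers matched), and promoters from RefSeq on GRCm38.p6 (4 of 4 genes matched). No 2 libraries held identical values.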

Additional observations from a re-analysis of the deposited data

Results flagged for a closer look

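A library stood far from the rest of its group, by Dixon's test at the 95% level, in 6 of 32 combinations of gene and group, and only groups of 4 or more libraries were tested. Chance flags about 1 in 20. Of the 6, 5 lay in the VMH and 5 came from libraries of the first set.

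Tac2 stood at 12.1957 RPKM in VMH-Fed-1, against 1.39 to 3.22 RPKM in the other fed VMH libraries. It stood at 17.4922 RPKM in VMH-Fast-1, against 1.47 to 5.27 RPKM in the other fasted ones. Both values rest on 11 reads, in libraries of 2.03 and 1.33 M reads, and both libraries belong to the first set, in which Tac2 values were scaled up. Per depth alone these were 5.42 and 8.29 reads per M, against 0 in VMH-Fed-2 and 0.48 in VMH-Fast-2 of the same set. VMH libraries of the other sets had estimates up to 6.16 (VMH-Fast-3). Those came from the exon length, without the scaling of Tac2 between sets, so they are not on the same scale. The ARC marker Npy was at 41.5 RPKM in VMH-Fed-1 and 3.51 RPKM in VMH-Fast-1, against 3.2 to 13.8 RPKM in the other VMH libraries. The ARC markers Agrp, Pomc and Ghrh stood at 2.49, 12.6 and 2.6 RPKM in VMH-Fed-1. In VMH-Fast-1 they stood at 2.89, 23.6 and 2.6 RPKM. All of these lay within the range of the other VMH libraries. The part of ARC tissue in the Tac2 values was not tested.

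Tacr1 stood at 3.1676 RPKM in VMH-Fast-1, the shallowest library, against 0.615 to 1.52 RPKM in the other fasted VMH libraries. Tacr3 stood at 3.9297 RPKM in VMH-Fed-4, against 0.520 to 1.11 RPKM in the other fed ones, and at 3.423 RPKM in VMH-Fast-2, against 0.377 to 1.12 RPKM in the other fasted ones. Ghrh, the gene whose pattern was closest to that of Tacr3, was at 6.85 RPKM in VMH-Fed-4, below its 10.9 RPKM in VMH-Fed-6, and at 13.0 RPKM in VMH-Fast-2, against 1.26 to 4.75 RPKM in the other fasted VMH libraries. The 2 Tacr3 values rest on 58.9 and 24.4 estimated reads. Tacr3 stood at 6.0658 RPKM in PVN-Fed-2, of 1.88 M reads, against 1.69 to 3.26 RPKM in the other fed PVN libraries.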

How the results depend on the processing

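Of the 48 differences between pairs of nuclei, the 8 of Tac2 that set ARC or DMH against VMH or PVN, the 4 of Tacr1 that set ARC or DMH against VMH, that of Tacr1 between fed DMH and PVN, the 2 of Tacr3 between ARC and VMH and that of Tacr3 between fasted VMH and PVN kept their calls under every alternative in which the gene was tested. Tacr1 was not tested with the filter at 5 RPKM. None of the 16 fasting differences was called under any alternative (388 tests in limma, 2 of them at an unadjusted p under 0.05), and the interaction stayed at 0 of 4. For the difference between nuclei, adjusted p for Tac1 in fed mice passed the threshold with the filter at 5 RPKM (0.0817), with array weights (0.0726) and without the first set (0.0612). For Tac1 in fasted mice it missed with no filter (0.103), with the sets as a term (0.11), with that term on log2(RPKM) (0.109) and with the replicate block (0.28). For Tacr3 in fed mice it missed with a pseudocount of 5 (0.104) and without the first set (0.261). Leaving out 1 library gave 0.0714 to 0.381 for Tac1 in fed mice, 0.0144 to 0.267 for Tac1 in fasted mice and 0.00199 to 0.123 for Tacr3 in fed mice. The cause of these shifts was not tested.

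Tac2 between ARC and DMH passed with a pseudocount of 5 (adjusted p 0.0408 fed and 0.0478 fasted). Tac2 between fasted VMH and PVN missed with a pseudocount of 5 (0.207), as did Tacr3 between fed VMH and PVN (0.13) and between fasted VMH and DMH (0.112). Tacr1 between fasted PVN and ARC or DMH missed with a pseudocount of 0.1 (0.163 and 0.15) and with the sets as a term on log2(RPKM) (0.188 and 0.13).

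Estimates near 0 turned sign. The fasting difference of Tac1 in the VMH was 0.048 with array weights and 0.104 without the first set. That of Tacr1 in the DMH was -0.0181 with array weights, -0.003 with the replicate block and -0.0332 without the first set. Tacr3 between fed DMH and PVN was -0.0032 with quantile normalization, -0.0544 with array weights and -0.0377 without the first set. Tac1 between fasted VMH and PVN was -0.1002 with the replicate block. Leaving out 1 library gave ranges that crossed 0 for the fasting difference of Tac1 in the VMH (-0.373 to 0.0355) and the PVN (-0.0558 to 0.169), of Tacr1 in the VMH (-0.01 to 0.264) and the DMH (-0.063 to 0.138) and of Tacr3 in the VMH (-0.36 to 0.116). It did so for Tac1 between fed DMH and PVN (-0.0636 to 0.275) and fasted VMH and PVN (-0.121 to 0.287), and for Tacr3 between DMH and PVN in fed (-0.159 to 0.198) and fasted mice (-0.0381 to 0.0661).

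Correlations of the deviations of equally numbered libraries were -0.121 to 0.0544 between fed and fasted groups and -0.131 to 0.0655 between nuclei, with 0 of 20 and 0 of 58 pairs over 0.1. The replicate block ended the call for Tac1 between fasted ARC and VMH (-0.81, adjusted p 0.198).

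Counts of genes called with fasting moved more than those between nuclei, from 19 in the ARC to 0 when that nucleus was fitted alone and 40 with array weights, from 44 in the VMH to 1 (alone) and 64 (without VMH-Fast-6), from 8 in the DMH to 0 (alone) and 89 (without DMH-Fast-3), and from 24 in the PVN to 3 (alone) and 141 (array weights). The interaction had 2 genes, and 0 with the replicate block to 8 with array weights. Between fasted DMH and PVN there were 1009 genes, and 1565 with array weights. Few reads stood behind Tac2 in the VMH and PVN and behind both receptors in the VMH. The part of depth in the differences between nuclei was not tested.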
